A study of Mus musculus with 44 samples.

Results

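A set of 10 genes of adipogenesis and lipid handling, Pparg, Cebpa, Zfp423, Ebf2, Lpl, Cd36, Fabp4, Plin1, G0s2 and Adipoq, was followed in fibroblasts from normal mammary glands and from BRCA1-deficient mammary tumors. The genes were chosen by name for their known roles and are 10 of the 55486 genes in the count table. Fibroblasts were sorted as EpCAM−/CD49f−/CD31−/CD45− cells from En1-Cre;mTmG recipient mice, in which Cre under the En1 locus switches a membrane reporter from tdTomato to GFP and so marks cells of the En1 lineage. En1-Cre mice had been crossed to mTmG mice of FVB/n background, the strain of the donors, and recipients kept their own mammary epithelium, because their fat pads were not cleared before transplantation. Control mice (n = 3), which the labels call wildtype, had received control mammary tissue, and their cells are normal fibroblasts (NFs). The study names WapCre-negative Cdh1F/F;PtenF/F mice as donors of control tissue for En1-Cre;mTmG recipients. It does not name the donors of the sequenced controls. WB1P mice (n = 5) had received pre-neoplastic tissue of WapCre;Brca1F/F;Trp53F/F donors, in which Cre is driven by a milk protein promoter of the mammary epithelium. WB1P-Myc mice (n = 5) had received tissue that in addition carried Col1a1invCAG-Myc-IRES-Luc, a Cre-activated Myc transgene. Cells of both tumor groups are cancer-associated fibroblasts (CAFs). The series describes end-stage tumors and age-matched controls without giving ages, and the labels mark WB1P-Myc mice 12 and 13 with 8x8, which the methods of the study use for tumors of an advanced stage. Mice are numbered 1 to 3 (control), 4 to 8 (WB1P) and 9 to 13 (WB1P-Myc). Each control label holds a pair of animal numbers and was counted as 1 mouse. Whether the animals of a pair were pooled is not stated in the sources used.

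Adipocytes arise from mesenchymal precursors through a cascade in which C/EBP proteins and PPARγ switch on each other and then the genes for taking up, binding and storing fatty acids. Zfp423 and Ebf2 are transcription factors that mark preadipocytes before that switch. In the mammary gland the epithelium is embedded in a fat pad, so that adipocytes, their precursors and fibroblasts lie side by side. CD26, encoded by Dpp4, is a surface peptidase that separates the main classes of fibroblasts in many tissues. The study asked whether CD26− and CD26+ NFs give rise to different CAFs, and the comparisons below ask how far these genes differed between NFs and CAFs and between the CD26 classes.

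Each mouse gave up to 4 sorted populations, En1+ and double− (both CD26−) and CD26+ and double+ (both CD26+), in 44 libraries with 5790599 to 15240328 counted reads (median 12818093). Libraries of 1 mouse were added up within each CD26 class into 3 control, 5 WB1P and 5 WB1P-Myc sums for CD26− cells and 3, 4 and 5 for CD26+ cells. Levels are given as CPM, the counts of a gene scaled to the total of such a sum. WB1P mouse 4 had no CD26+ library. The sort was visible in Dpp4, which lay between 0.619 and 17.6 CPM in the CD26− sums and between 223 and 846 CPM in the CD26+ sums. Summed levels of 9 fibroblast markers were 34393 to 85188 CPM over all sums. In the CD26+ class the 4 WB1P CAFs (62417 to 70906 CPM) lay above the 3 NFs (34393 to 58391 CPM). Markers of other cells were not level between groups. The 9 pericyte markers of CD26− cells summed to 228 to 436 CPM in control, 1917 to 5618 CPM in WB1P and 2669 to 10998 CPM in WB1P-Myc mice. In bulk samples such as these, fewer cells that express a gene and less RNA per cell cannot be told apart.

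Per kilobase of merged exon length, Lpl was the highest of the 10 genes in every group, with 213 ± 40.7 CPM per kb in CD26− NFs (SD, n = 3) and 24.9 ± 10.5 CPM per kb in CD26+ WB1P CAFs (SD, n = 4), where it was lowest. Lpl encodes lipoprotein lipase, the secreted enzyme that frees fatty acids from circulating lipoproteins. Next in CD26− NFs were Fabp4 at 20.8, Cebpa at 17.7, Ebf2 at 14.6, Cd36 at 13.5 and Pparg at 12.0 CPM per kb, and each of these neighbours overlapped the next in its range over mice. G0s2 followed at 8.89 and Zfp423 at 3.98 CPM per kb. Adipoq and Plin1, the genes most restricted to mature adipocytes, were last in every group and did not exceed 1.09 CPM per kb in the mean of any group. Ebf2 was second in all 3 CD26+ groups, with 37.7 CPM per kb in NFs, and Pparg moved from rank 6 in CD26− NFs to rank 8 in CD26− WB1P CAFs. Genes are compared with each other only on this per-length scale.

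**Figure D1:**
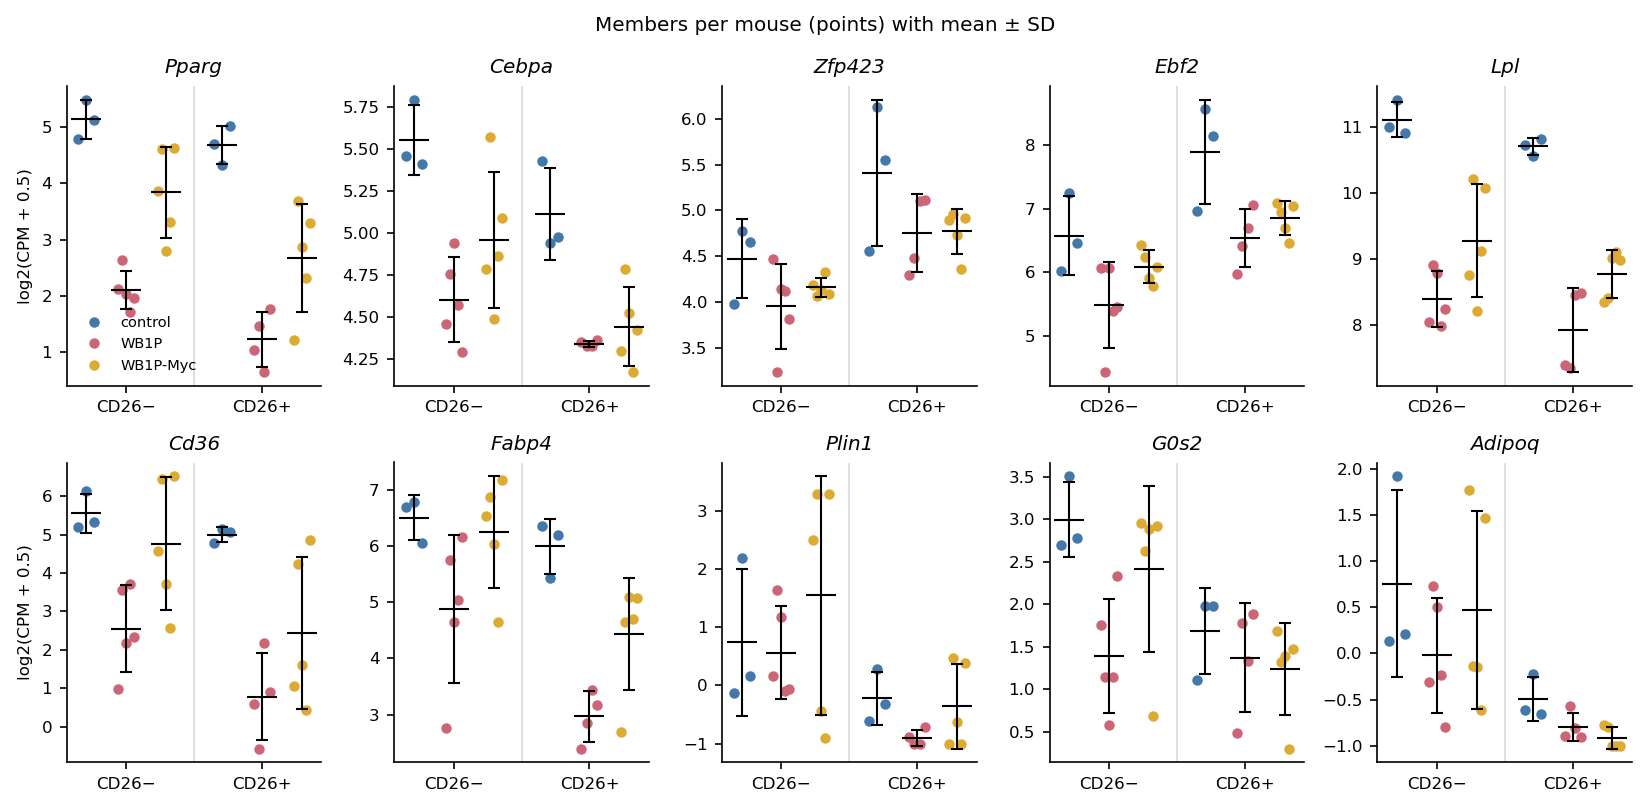
Level of each of the 10 genes per mouse as log2(CPM + 0.5), by CD26 class, in control (blue), WB1P (red) and WB1P-Myc (yellow) mice; horizontal lines and bars are means ± SD. Pparg and Lpl of every CAF sum lie below every NF sum of the same CD26 class, whereas Plin1, G0s2 and Zfp423 overlap in most groups.

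Of the 10 genes, 6 were lower in CD26− WB1P CAFs than in CD26− NFs and none was higher (edgeR quasi-likelihood test, FDR below 0.05), where 17.8% of the 16601 genes tested were called lower and 17.6% higher. In CD26− WB1P-Myc CAFs, 3 of 10 were lower and none higher, against 17.5% of all genes called lower and 19.1% higher. Among CD26+ fibroblasts, 6 of 10 were lower in WB1P CAFs and 4 of 10 in WB1P-Myc CAFs, and none was higher. The background was 16.1% lower and 17.4% higher for WB1P and 17.3% and 17.4% for WB1P-Myc. The median log2 fold change of the 10 genes was −1.20, −0.44, −2.05 and −1.21 in these 4 comparisons in the order given, and that of all genes tested lay between −0.01 and 0.02. Sums of CAFs and NFs did not overlap for 5, 2, 6 and 5 of the 10 genes, with the CAFs below. The share of all genes without overlap was not counted, so these numbers have no background beside them. DESeq2 also called none of the 10 higher in any of the 4. Both tumor groups were compared with the same control mice, so the comparisons are not independent and are given side by side. The p-values measure the spread between the samples counted as mice, and each control may be a pool of animals.

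**Figure D2:**
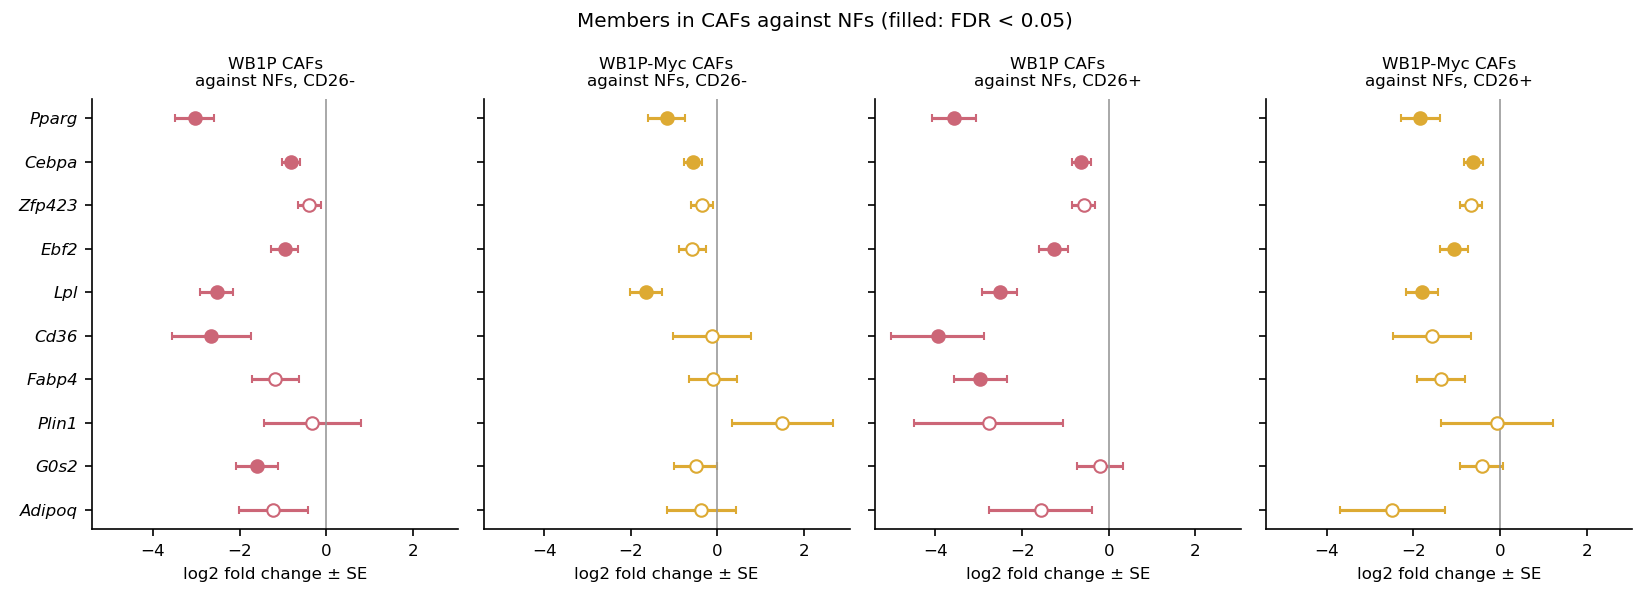
Log2 fold change of each gene in CAFs against NFs of the same CD26 class, with its standard error from the edgeR fit; filled points passed an FDR of 0.05. Lpl, Pparg and Cebpa are filled and below 0 in all 4 panels, whereas Adipoq, Plin1 and Zfp423 are open in all 4.

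Pparg, which encodes the nuclear receptor PPARγ, the master regulator of adipocyte differentiation, had the largest fall in WB1P CAFs of CD26− class. It was 27.1, 44.4 and 34.6 CPM in CD26− NFs of mice 1 to 3. CD26− WB1P CAFs had 3.87, 5.74, 3.58, 2.79 and 3.42 CPM in mice 4 to 8. CD26− WB1P-Myc CAFs had 14.0, 23.9, 6.43, 9.38 and 24.3 CPM in mice 9 to 13. All CAFs were thus below all NFs, WB1P CAFs formed a tight low group, and WB1P-Myc CAFs spread between them and the NFs, with mice 10 and 13 highest. The level was 8.19-fold lower in WB1P CAFs (log2 fold change −3.03 ± 0.45 SE, edgeR FDR 2.46e-05) and 2.26-fold lower in WB1P-Myc CAFs (−1.18 ± 0.44, edgeR FDR 0.0383). The latter call was lost without WB1P-Myc mouse 11 or 12 or without any 1 control mouse, with edgeR FDRs of 0.0543 to 0.155. In CD26+ fibroblasts, NFs had 25.3, 19.6 and 31.9 CPM. CD26+ WB1P CAFs of mice 5 to 8 had 1.55, 2.25, 1.06 and 2.90 CPM, and CD26+ WB1P-Myc CAFs had 1.83, 12.4, 6.77, 4.50 and 9.31 CPM. Again no CAF reached the lowest NF, and the falls were 11.8-fold (−3.56 ± 0.51, edgeR FDR 3.70e-05) and 3.57-fold (−1.83 ± 0.44, edgeR FDR 0.00335). Pparg lies at chr6:115360951-115490399 on the plus strand (GRCm38) and overlaps the antisense gene Gm44079 (115451815 to 115464990). The strand setting of the counting is not given in the sources used here, so reads of antisense partners may be included.

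Because C/EBP proteins are known to act on Pparg and PPARγ on Cd36, and both genes were lower in WB1P CAFs, the 250 bases before a start site of each are shown, taken from RefSeq (GRCm38.p6). RefSeq promoter entries were matched for 7 of the 10 genes (10 start sites) and were not used for Fabp4, Lpl and Ebf2. Capitals mark matches to the C/EBP motif TTNNGNAA on either strand in both sequences, and in Cd36 also a match to the PPAR half-site AGGTCA, which reads TGACCT on the printed strand. The first sequence is that of the most downstream of 3 listed Pparg starts, at chr6:115421816-115422065 on the plus strand, and the second that of Cd36, at chr5:17835897-17836146 on the minus strand.
Pparg: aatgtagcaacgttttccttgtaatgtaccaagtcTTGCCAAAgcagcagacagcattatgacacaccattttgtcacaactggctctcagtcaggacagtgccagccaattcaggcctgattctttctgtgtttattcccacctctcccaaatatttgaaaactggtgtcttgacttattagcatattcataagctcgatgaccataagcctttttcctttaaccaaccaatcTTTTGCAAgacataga
Cd36: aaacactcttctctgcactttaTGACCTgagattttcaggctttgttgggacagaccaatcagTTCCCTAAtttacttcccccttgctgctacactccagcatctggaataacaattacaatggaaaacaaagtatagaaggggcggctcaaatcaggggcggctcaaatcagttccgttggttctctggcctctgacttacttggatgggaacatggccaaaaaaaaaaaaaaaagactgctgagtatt
The Pparg matches begin 215 and 16 bases before the start, and those of Cd36 228 bases (PPAR half-site) and 187 bases (C/EBP) before it. Of 32851 mouse promoter windows of this length, 36.9% held the C/EBP motif, 14.0% the half-site and 0.0335% the full PPAR response element AGGTCANAGGTCA, which was searched on both strands and contains the half-site. The full element was in none of the 10 windows. The printed Pparg window was the only 1 of its 3 that held the C/EBP motif. The half-site was also in the other 2 Pparg windows and in 1 of 2 of Zfp423, the C/EBP motif also in those of Adipoq and Plin1 and in both of Zfp423, and neither in those of Cebpa and G0s2. These are matches of letters and describe the windows only.

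Cebpa, which encodes C/EBPα, the partner of PPARγ in late differentiation, fell less. CD26− NFs had 43.3, 54.9 and 42.0 CPM, CD26− WB1P CAFs 21.4, 26.5, 30.1, 23.3 and 19.0 CPM and CD26− WB1P-Myc CAFs 27.0, 47.0, 21.9, 28.5 and 33.5 CPM. WB1P CAFs did not overlap NFs, whereas mouse 10 lay among the NFs. The level was 1.76-fold lower in WB1P CAFs (−0.82 ± 0.21, edgeR FDR 0.00505) and 1.48-fold lower in WB1P-Myc CAFs (−0.56 ± 0.21, edgeR FDR 0.0433). The second call was lost without WB1P-Myc mouse 9, 11, 12 or 13 or without any 1 control mouse (edgeR FDR 0.0613 to 0.206). In CD26+ fibroblasts, NFs had 42.5, 30.1 and 30.9 CPM, and all CAFs lay below them at 19.5 to 20.1 CPM in WB1P and 17.5 to 27.1 CPM in WB1P-Myc. Those falls were 1.55-fold (−0.63 ± 0.23, edgeR FDR 0.0369) and 1.53-fold (−0.62 ± 0.22, edgeR FDR 0.0309). The WB1P call was lost without WB1P mouse 6, 7 or 8 or control mouse 1 or 3 (edgeR FDR 0.0525 to 0.228), and with mouse as a random replicate block (limma-voom FDR 0.0652). The WB1P-Myc call was lost without mouse 12, 13 or control mouse 1 or 3 (edgeR FDR 0.0532 to 0.241). Cebpa is a single-exon gene at chr7:35119293-35121928 on the plus strand, and the antisense gene Gm45091 (35118044 to 35119605) overlaps its start.

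Lpl, at chr8:68880491-68907448 on the plus strand, was called lower in all 4 comparisons under every alternative fit at an FDR of 0.05. With the study's added limit of 2 on the absolute log2 fold change, it was not called in WB1P-Myc CAFs of either CD26 class. CD26− NFs had 2052, 2719 and 1925 CPM. CD26− WB1P CAFs had 265, 482, 444, 255 and 304 CPM, and CD26− WB1P-Myc CAFs had 434, 1181, 297, 558 and 1079.7 CPM. Every CAF lay below every NF, and WB1P-Myc mice 10 and 13 were again nearest to the NFs. These levels were 5.76-fold lower in WB1P CAFs (−2.53 ± 0.38, edgeR FDR 2.69e-05) and 3.13-fold lower in WB1P-Myc CAFs (−1.65 ± 0.37, edgeR FDR 0.00187). In the CD26+ class, NFs had 1697, 1515 and 1801 CPM, WB1P CAFs 169, 163, 353 and 360.5 CPM, and WB1P-Myc CAFs 326, 341, 517, 554 and 509 CPM. The groups of CAFs and NFs were far apart and the CAFs of both models within 163 to 554 CPM. The falls were 5.74-fold (−2.52 ± 0.41, edgeR FDR 0.000127) and 3.49-fold (−1.80 ± 0.37, edgeR FDR 0.00116).

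Cd36, at chr5:17781690-17888801 on the minus strand, encodes a scavenger receptor that takes up long-chain fatty acids. It was 36.2, 69.2 and 39.8 CPM in CD26− NFs and 1.47, 11.4, 4.00, 12.6 and 4.57 CPM in CD26− WB1P CAFs. In CD26− WB1P-Myc CAFs it was 23.3, 87.3, 12.5, 5.39 and 91.4 CPM. Mice 10 and 13 were above all NFs and the other 3 below all NFs. The WB1P fall was 6.32-fold (−2.66 ± 0.91, edgeR FDR 0.0268) and was no longer called without WB1P mouse 4, 6 or 8 or control mouse 2 or 3 (edgeR FDR 0.0527 to 0.106). For WB1P-Myc the log2 fold change was −0.13 ± 0.91 (edgeR FDR 0.924). The CD26+ class had 27.0, 34.8 and 33.3 CPM in NFs, 1.01, 0.173, 4.03 and 1.38 CPM in WB1P CAFs and 1.58, 18.3, 2.55, 0.857 and 28.4 CPM in WB1P-Myc CAFs. The 2 high WB1P-Myc values were those of mice 10 and 13 here too. CD26+ WB1P CAFs were 15.5-fold lower than NFs (−3.95 ± 1.06, edgeR FDR 0.00737). The WB1P-Myc difference of −1.57 ± 0.90 was not called (edgeR FDR 0.177), but it was without WB1P-Myc mouse 13 (−2.46, edgeR FDR 0.0470) and with mouse as a random replicate block (−2.73, limma-voom FDR 0.0163).

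Fabp4, a fatty acid carrier of adipocytes that is also made by capillary endothelium, lies at chr3:10204088-10208576 on the minus strand. CD26− NFs had 103, 111 and 65.9 CPM. CD26− WB1P CAFs had 6.27, 53.3, 24.8, 32.7 and 71.5 CPM, and CD26− WB1P-Myc CAFs had 92.6, 117, 65.2, 24.6 and 145 CPM. Both CAF groups overlapped the NFs, and neither difference was called (WB1P −1.17 ± 0.54, edgeR FDR 0.0972; WB1P-Myc −0.09, edgeR FDR 0.909). In the CD26+ class, NFs had 81.9, 42.9 and 72.9 CPM, WB1P CAFs 4.74, 6.74, 10.3 and 8.55 CPM and WB1P-Myc CAFs 5.96, 24.6, 33.6, 25.5 and 33.1 CPM. All CD26+ CAFs lay below all CD26+ NFs. The fall was 7.78-fold in WB1P (−2.96 ± 0.61, edgeR FDR 0.00113), and the WB1P-Myc difference of −1.36 ± 0.55 missed the threshold (edgeR FDR 0.0568). The latter was called by DESeq2 (Wald test FDR 0.0341), with only the groups compared (edgeR FDR 0.0404) and with En1-negative libraries alone (edgeR FDR 0.0486). In no other alternative fit was it called. The CD26− WB1P difference was called with En1-positive libraries alone (−1.58, edgeR FDR 0.0486). The summed level of 10 capillary endothelial markers in CD26− cells was 35.9 to 66.9 CPM (NFs) and 112 to 575 CPM (CAFs), but the list moved both ways. Flt1, Esam and Emcn were called higher in CD26− CAFs of both models. Cdh5 (9.09 to 1.92 CPM), Cldn5 (1.57 to 0.105 CPM), Pecam1 and Tie1, which define endothelium, were called lower in CD26− WB1P CAFs, and Pecam1 also in WB1P-Myc CAFs. Of the 10 markers 3 were thus higher in each model and 4 (WB1P) and 1 (WB1P-Myc) lower, with median log2 fold changes of −1.02 and −0.97. In CD26+ cells it was 43.5 to 83.7 CPM in NFs and 12.4 to 49.0 CPM in CAFs. The part of these cells in the Fabp4 levels was not tested.

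Plin1, which encodes perilipin that coats the lipid droplet of adipocytes (chr7:79720218-79732903, minus strand), and Adipoq, which encodes the hormone adiponectin (chr16:23146536-23158028, plus strand), were close to the counting limit. Plin1 had 11, 103 and 17 counts in CD26− NFs, 8, 66, 46, 10 and 12 counts in CD26− WB1P CAFs and 60, 268, 3, 1 and 187 counts in CD26− WB1P-Myc CAFs. Mouse 2 was the high control, and mice 9, 10 and 13 reached 5.12 to 9.21 CPM against at most 4.07 CPM in NFs. In the CD26+ class Plin1 had at most 18 counts in any mouse. Adipoq had 16, 83 and 18 counts in CD26− NFs, 4, 29, 24, 8 and 2 in CD26− WB1P CAFs and 34, 12, 5, 4 and 46 in CD26− WB1P-Myc CAFs. CD26+ NFs had 4, 9 and 4 counts of Adipoq and CD26+ CAFs 0 to 2. Neither gene was called in any comparison of CAFs with NFs (edgeR FDR 0.116 to 0.972), and at counts this low no fold change is given. With En1-positive libraries alone, Adipoq was called lower in CD26− WB1P CAFs (edgeR FDR 0.0435).

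G0s2 encodes an inhibitor of the triglyceride lipase ATGL. CD26− NFs had 5.99, 10.9 and 6.37 CPM, CD26− WB1P CAFs 2.86, 1.71, 0.990, 1.70 and 4.53 CPM and CD26− WB1P-Myc CAFs 7.25, 5.67, 6.91, 1.10 and 7.09 CPM. WB1P CAFs lay below all NFs, with a 3.03-fold fall (−1.60 ± 0.49, edgeR FDR 0.0136) that was not called without control mouse 2 (edgeR FDR 0.0987). WB1P-Myc CAFs overlapped NFs (−0.51, edgeR FDR 0.427). In the CD26+ class NFs had 1.65 to 3.45 CPM, WB1P CAFs 0.893 to 3.19 CPM and WB1P-Myc CAFs 0.729 to 2.71 CPM, and neither difference was called (edgeR FDR 0.80 and 0.533). G0s2 (chr1:193272161-193273217, minus strand) lies within Lamb3 on the opposite strand, which in CD26− cells had 1.34 to 3.62 CPM (NFs) and 2.55 to 41.9 CPM (WB1P CAFs). Lamb3 was highest in mice 4 and 8, the WB1P mice with the highest G0s2, and the G0s2 values are uncertain for that reason.

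Ebf2 and Zfp423, the preadipocyte factors, were higher in CD26+ than in CD26− cells of every mouse that gave both classes. In NFs of mice 1 to 3, Ebf2 had 64.6, 151 and 87.5 CPM in the CD26− class and 125, 378 and 282 CPM in the CD26+ class. In WB1P CAFs it had 66.7, 20.9, 66.5, 41.4 and 43.0 CPM in CD26− cells of mice 4 to 8 and 62.3, 84.4, 103 and 132 CPM in CD26+ cells of mice 5 to 8. WB1P-Myc CAFs had 85.2, 75.0, 59.8, 54.4 and 67.0 CPM in the CD26− class and 136, 123, 103, 87.4 and 131 CPM in the CD26+ class. Control mouse 2 was highest throughout and mouse 1 the lowest control, so that the NFs spread over a wide range. Against NFs, Ebf2 was 1.94-fold lower in CD26− WB1P CAFs (−0.96 ± 0.32, edgeR FDR 0.0219), 2.41-fold lower in CD26+ WB1P CAFs (−1.27 ± 0.34, edgeR FDR 0.00647) and 2.08-fold lower in CD26+ WB1P-Myc CAFs (−1.06 ± 0.32, edgeR FDR 0.0131). CD26− WB1P-Myc CAFs differed by −0.58 ± 0.32 (edgeR FDR 0.158). The first call was lost without WB1P mouse 7 or control mouse 2 (edgeR FDR 0.0526 and 0.237), and the WB1P-Myc call without control mouse 3 or 2 (edgeR FDR 0.0592 and 0.111). Zfp423 in the CD26− class was 15.3 to 26.9 CPM in NFs, 8.89 to 21.6 CPM in WB1P CAFs and 16.3 to 19.6 CPM in WB1P-Myc CAFs. CD26+ cells had 23.0, 69.7 and 46.4 CPM in NFs, 19.1 to 34.2 CPM in WB1P CAFs and 20.1 to 30.7 CPM in WB1P-Myc CAFs. No Zfp423 difference between CAFs and NFs was called (edgeR FDR 0.0503 to 0.292). Without control mouse 1, the lowest CD26+ NF, Zfp423 was called lower in CD26+ CAFs of both models (edgeR FDR 0.0113 for WB1P and 0.00558 for WB1P-Myc). With all mice kept, it was called lower in CD26+ WB1P-Myc CAFs by DESeq2 (Wald test FDR 0.0325) and with DESeq2 size factors (edgeR FDR 0.0404). Ebf2 lies at chr14:67233292-67430918 on the plus strand with a miRNA, 3 antisense genes and a processed transcript on the opposite strand overlapping it, and Zfp423 at chr8:87661810-87959595 on the minus strand.

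**Figure D3:**
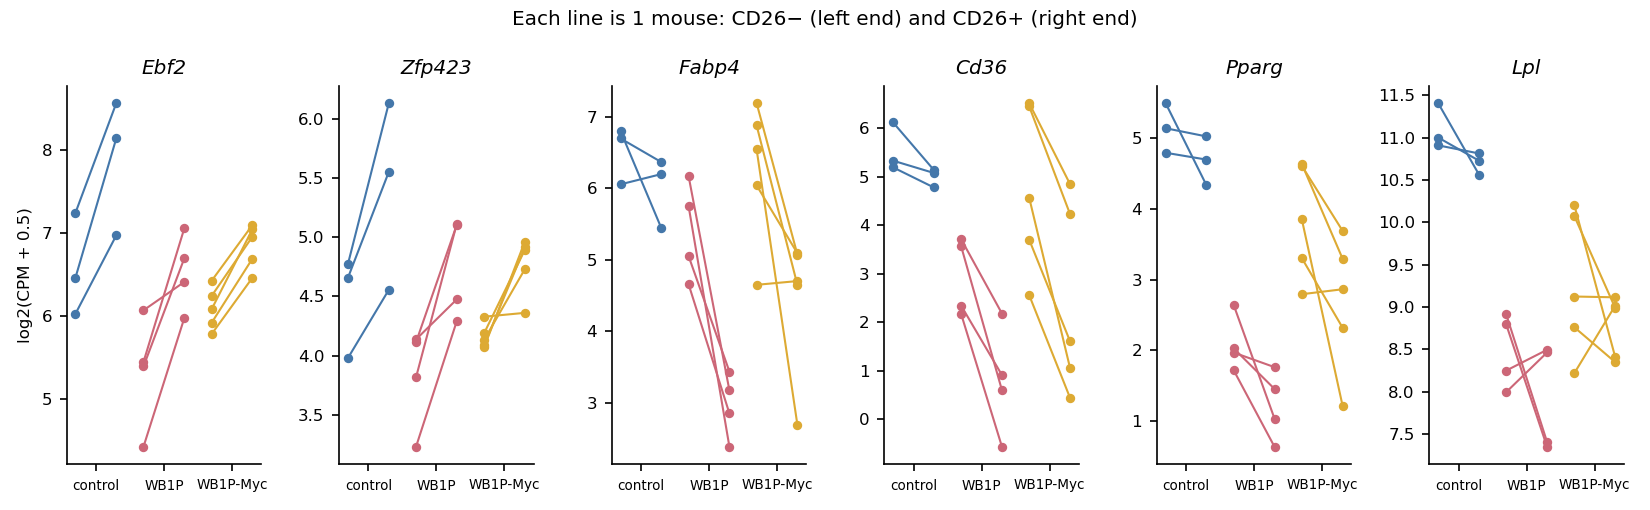
Levels of 6 genes as log2(CPM + 0.5) in CD26− cells (left end of each line) and CD26+ cells (right end) of the same mouse, for control (blue), WB1P (red) and WB1P-Myc (yellow) mice that gave both classes. Lines of Ebf2 and Zfp423 rise in all 12 mice, whereas those of Fabp4 fall in all 4 WB1P mice and those of Cd36 fall in every mouse shown.

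The CD26 classes of the same mice were then compared. In NFs, Ebf2 was 2.69-fold higher in CD26+ cells (1.43 ± 0.37, edgeR FDR 0.0256) and Zfp423 2.16-fold higher (1.11 ± 0.30, edgeR FDR 0.0331), each in 3 of 3 mice. These were the 2 of 10 genes called higher, and none was called lower, where 2.67% of all genes were called higher and 1.49% lower. Both calls were lost without control mouse 2 or 3 (edgeR FDR 0.0765 to 0.317). With mouse as a replicate block, Adipoq (edgeR FDR 0.00526) and G0s2 (−1.39, edgeR FDR 0.0136) were also called lower in CD26+ NFs. Pparg (−0.39), Lpl (−0.35), Cd36 (−0.54), Fabp4 (−0.43) and Cebpa (−0.36) were not called in NFs (edgeR FDR 0.611 to 0.93). That fit did not pair the classes by mouse, and with mouse as a replicate block these genes were not called either. Pparg, Lpl, Cd36 and Cebpa were lower in CD26+ cells of 3 of 3 control mice and Fabp4 of 2 of 3. How many of all genes moved alike in every mouse was not counted.

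In WB1P CAFs, 2 of 10 genes were higher and 3 lower in CD26+ cells, against 13% of all genes in each direction. Ebf2 was 2.17-fold higher (1.11 ± 0.30, edgeR FDR 0.00775) and Zfp423 1.90-fold higher (0.92 ± 0.24, edgeR FDR 0.00727), each in 4 of 4 mice, and both calls were lost without mouse 8 (edgeR FDR 0.0783 and 0.0733). Fabp4 was 4.64-fold lower (−2.21 ± 0.56, edgeR FDR 0.00541) in 4 of 4 mice. Adipoq and Plin1 were also called lower (edgeR FDR 0.0352 and 0.0365) on 0 to 3 counts in CD26+ cells, and neither was called without any 1 of mice 5 to 8 (edgeR FDR 0.0556 to 0.159). Cd36 differed by −1.84 ± 0.95 (edgeR FDR 0.164) and was called with mouse as a replicate block (−2.22, edgeR FDR 0.00043).

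In WB1P-Myc CAFs, 2 of 10 genes were higher and 4 lower in CD26+ cells, against 9.29% and 10.7% of all genes. Ebf2 was 1.93-fold higher (0.94 ± 0.28, edgeR FDR 0.0192) and Zfp423 1.75-fold higher (0.81 ± 0.23, edgeR FDR 0.0152), each in 5 of 5 mice. Fabp4 was 3.24-fold lower (−1.70 ± 0.50, edgeR FDR 0.0172) in 4 of 5 mice and G0s2 2.47-fold lower (−1.30 ± 0.44, edgeR FDR 0.0406) in 5 of 5. Adipoq (edgeR FDR 0.00166) and Plin1 (edgeR FDR 0.0241) were called lower on few counts. All but the Adipoq call depended on single mice. The Ebf2 call was lost without mouse 9, 11, 12 or 13 (edgeR FDR 0.0536 to 0.0697), Zfp423 and G0s2 without mouse 9, 10, 11 or 13 (0.0552 to 0.0832 and 0.0777 to 0.115), Fabp4 without 9, 10 or 13 (0.0536 to 0.0710) and Plin1 without 10 or 9 (0.0510 and 0.0878). With mouse as a replicate block, Pparg (−1.06, edgeR FDR 0.0209) and Cd36 (−2.31, edgeR FDR 5.4e-05) were called lower too, where the unblocked values were −1.05 ± 0.40 (edgeR FDR 0.065) and −1.99 ± 0.83 (edgeR FDR 0.0963).

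Whether the CD26 difference itself differed between CAFs and NFs was tested with an interaction term. None of the 10 genes was called for WB1P or for WB1P-Myc, where 1.86% and 1.16% of all genes were. At an unadjusted edgeR p under 0.05 there was 1 gene of the 10 for WB1P and 0 for WB1P-Myc, where 2233 and 1611 of all 16601 genes were. DESeq2 called 0 of the 10 in both. The 1 gene was Fabp4 in WB1P, whose CD26 difference was 1.79 lower on the log2 scale than in NFs (−1.79 ± 0.82, unadjusted edgeR p 0.0411, edgeR FDR 0.344). With mouse as a replicate block, Cd36 was called for WB1P-Myc (−1.82, edgeR FDR 0.0375).

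WB1P-Myc and WB1P CAFs were compared directly. Pparg was 3.62-fold higher in CD26− WB1P-Myc CAFs than in CD26− WB1P CAFs (1.86 ± 0.41, edgeR FDR 0.0448), and all 5 WB1P-Myc mice were above all 5 WB1P mice. It was the 1 gene of the 10 that was called, where 0.205% of all genes were called higher and 0.307% lower. This call was lost without any 1 of WB1P mice 4 to 8 or without WB1P-Myc mouse 9, 10 or 13 (edgeR FDR 0.0560 to 0.146) and with mouse as a random replicate block (1.79, limma-voom FDR 0.0831). Cd36 was 2.53 ± 0.84 higher on the log2 scale (edgeR FDR 0.168), G0s2 1.09 (0.252), Fabp4 1.08 (0.307) and Lpl 0.88 (0.222), and none of these was called. All 10 log2 fold changes were above 0, with a median of 0.98 against 0.03 over all genes. In CD26+ CAFs no gene of the whole table was called (0% of 16601). Of the 10 genes 3 had an unadjusted edgeR p under 0.05, where 646 of the 16601 did, with Pparg at 1.73 ± 0.46 (unadjusted edgeR p 0.00107, edgeR FDR 1.0). DESeq2 called 0 of the 10 in the CD26+ class.

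The En1 lineage was compared as the mean difference over the 3 treatments, without pairing libraries by mouse. Within CD26− cells, En1+ and double− libraries differed by −0.42 to 0.18 on the log2 scale over the 10 genes, and within CD26+ cells, double+ and CD26+ libraries differed by −0.14 to 0.78. None was called by edgeR, where 0.00642% and 0.0128% of 15584 genes were called, none of the 10 had an unadjusted p under 0.05, and DESeq2 called 0. Directions within single treatments were then counted. In CD26− cells, Pparg, Lpl, Fabp4, Cd36 and Ebf2 were higher in En1+ than in double− libraries of 3 of 3 control mice and lower in 4 of 4 WB1P mice that gave both. How many of all genes showed this pattern was not counted. Of 3 WB1P-Myc mice that gave both, 1 had higher Pparg, Lpl, Fabp4 and Cd36 in En1+ libraries, and 2 had higher Ebf2. Pparg of mice 5 to 8 was 4.36, 1.40, 1.60 and 3.14 CPM in En1+ and 7.03, 5.69, 4.07 and 3.71 CPM in double− libraries. In control mice 1 to 3 it was 28.4, 51.0 and 37.6 CPM (En1+) and 25.6, 38.8 and 31.9 CPM (double−). Lpl of WB1P mice 5 to 8 was 390, 359, 204 and 248.8 CPM (En1+) and 568.2, 525.8, 309 and 362 CPM (double−). The change of the En1 difference from control to WB1P was tested after these values had been seen. It was −1.10 ± 0.71 for Pparg, −0.75 ± 0.52 for Lpl, −1.07 ± 0.82 for Fabp4, −1.31 ± 1.34 for Cd36 and −0.33 ± 0.52 for Ebf2 on the log2 scale, and none was called (edgeR FDR 1.0 each, unadjusted p 0.130 to 0.534). In the fit with mouse as a replicate block it was −1.27 ± 0.55 for Pparg, −1.09 ± 0.47 for Cd36 and −0.52 ± 0.25 for Ebf2 (unadjusted edgeR p 0.0291, 0.0301 and 0.0470), and the FDR was again 1.0. Both fits called 0% of the 15584 genes for this change.

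The other genes of the pathway came from 7 lists of 119 genes, of which 112 were tested. In CD26− WB1P CAFs 17 were higher and 31 lower than in NFs, in CD26− WB1P-Myc CAFs 17 and 29, in CD26+ WB1P CAFs 18 and 32 and in CD26+ WB1P-Myc CAFs 14 and 34. Their median log2 fold changes were −0.22, −0.12, −0.26 and −0.25. As shares, 25.9% to 30.4% were lower and 12.5% to 16.1% higher, where 16.1% to 17.8% of all genes were lower and 17.4% to 19.1% higher. Shares of the single lists below are to be read against these.

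**Figure D4:**
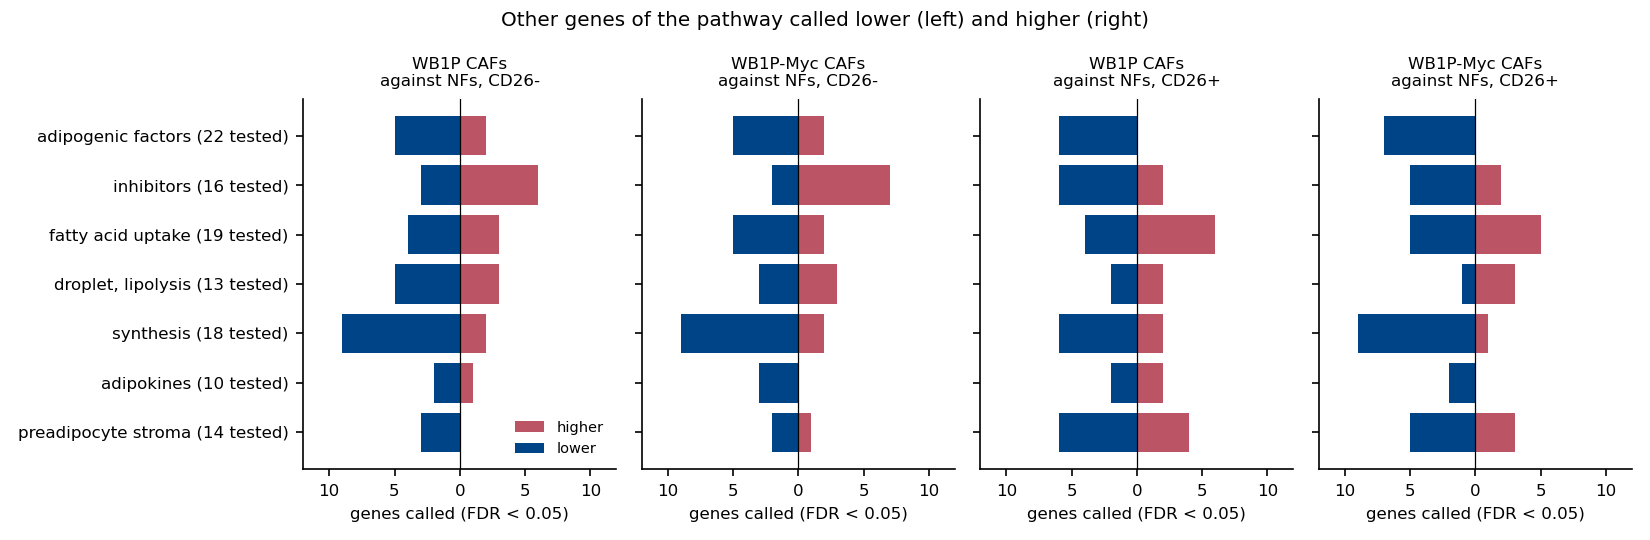
Number of genes of each pathway list called lower (blue, left) or higher (red, right) in CAFs against NFs at an FDR of 0.05, with the number tested in parentheses. Genes of fatty acid and triglyceride synthesis were more often called lower (9, 9, 6 and 9 of 18) than higher (2, 2, 2 and 1), and inhibitors of adipogenesis more often higher than lower in the CD26− panels (6 and 7 against 3 and 2 of 16) and more often lower than higher in the CD26+ panels (6 and 5 against 2 and 2).

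Among transcription factors and cofactors of adipogenesis, 5, 5, 6 and 7 of 22 were lower in the 4 comparisons (CD26− WB1P, CD26− WB1P-Myc, CD26+ WB1P, CD26+ WB1P-Myc) and 2, 2, 0 and 0 higher. The shares were 22.7%, 22.7%, 27.3% and 31.8% lower, above the 17.8%, 17.5%, 16.1% and 17.3% of all genes, and 9.09% or 0% higher. Klf15, Ppara, Stat5b, Lpin1 and Tcf7l1 were lower in all 4. These genes, like Scd1, Plin2, Fabp5, Hilpda and Angptl4 below, were named after their values had been seen. Klf15, a Krüppel-like factor of late adipogenesis, had mean levels of 6.70 CPM in CD26− NFs and 1.00 CPM in CD26− WB1P CAFs (6.18-fold lower, edgeR FDR 1.24e-05).

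The list of inhibitors of adipogenesis had 6 of 16 genes higher and 3 lower in CD26− WB1P CAFs and 7 higher and 2 lower in CD26− WB1P-Myc CAFs. In CD26+ CAFs, 2 were higher in each model and 6 and 5 lower. The shares higher were 37.5% and 43.8% in CD26− WB1P and WB1P-Myc CAFs, and the shares lower 37.5% and 31.2% in CD26+ WB1P and WB1P-Myc CAFs. Inhba, which encodes the activin A subunit, rose in CD26− cells from a mean of 6.85 CPM (NFs) to 1049 CPM in WB1P CAFs (166-fold, edgeR FDR 5.50e-06) and to 319.9 CPM in WB1P-Myc CAFs (46.0-fold). Dlk1, which encodes the preadipocyte factor Pref-1, rose from 0.927 to 20.1 CPM (24.0-fold) and 47.0 CPM (48.1-fold). In CD26+ cells Inhba rose 18.2-fold in WB1P and 5.30-fold in WB1P-Myc CAFs, and Dlk1 17.9-fold (edgeR FDR 0.0157) and 29.6-fold (edgeR FDR 0.00597). Dlk1 of CD26+ cells was 0.384 to 0.610 CPM in NFs, 13.3, 9.67, 3.18 and 2.82 CPM in WB1P CAFs and 48.4, 3.26, 2.04, 6.73 and 0.758 CPM in WB1P-Myc CAFs. Mouse 9 stood far above the other WB1P-Myc mice, and without it the rise was 7.26-fold (edgeR FDR 0.0167). Neither CD26+ rise of Dlk1 was called with mouse as a random replicate block (limma-voom FDR 0.149 and 0.159). The CD26+ WB1P rise was also not called without any 1 control mouse (edgeR FDR 0.0547 to 0.0639) or with En1-negative libraries alone (edgeR FDR 0.0781). CD26+ NFs had only 10, 10 and 18 counts of Dlk1. Wnt10b, a Wnt ligand that blocks preadipocyte differentiation, averaged 0.194 CPM in the CD26− and 78.2 CPM in the CD26+ class of NFs.

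Partners of Lpl and Cd36 in fatty acid uptake moved both ways, with 3, 2, 6 and 5 of 19 genes higher and 4, 5, 4 and 5 lower, shares of 10.5% to 31.6% and 21.1% to 26.3%. Apoe, the lipoprotein ligand, fell in CD26− cells from a mean of 804 CPM (NFs) to 79.0 CPM in WB1P CAFs (9.02-fold) and 171 CPM in WB1P-Myc CAFs (4.78-fold), and in CD26+ cells from 372 CPM to 51.7 CPM (6.32-fold) and 68.3 CPM (5.06-fold). Vldlr, a receptor for such particles, was 3.24-fold lower in CD26− WB1P-Myc CAFs. Fabp5, a fatty acid carrier of the same family as Fabp4, was higher in all 4 comparisons and 12.8-fold higher in CD26− WB1P CAFs (mean 4.83 CPM in NFs and 56.7 CPM in CAFs, edgeR FDR 3.16e-06). Angptl4, a secreted inhibitor of lipoprotein lipase, was called in none of the 4 (edgeR FDR 0.105 to 0.804).

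Of the lipid droplet and lipolysis genes, 3, 3, 2 and 3 of 13 were higher and 5, 3, 2 and 1 lower, shares of 15.4% to 23.1% and 7.69% to 38.5%. Plin2, the perilipin of most cell types, fell from a mean of 242 to 82.7 CPM in CD26− WB1P CAFs (2.67-fold, edgeR FDR 0.00191) and was lower in the other 3 as well. Mgll, which encodes monoglyceride lipase, rose from 8.49 to 215 CPM in CD26− WB1P CAFs (27.6-fold) and to 123 CPM in CD26− WB1P-Myc CAFs (14.9-fold). In synthesis, Scd1, the stearoyl-CoA desaturase, fell from 252 to 74.7 CPM in CD26− WB1P CAFs (3.10-fold, edgeR FDR 2.21e-06) and was lower in all 4 comparisons. Synthesis genes were lower in 33.3% to 50% and higher in 5.56% to 11.1%, and had median log2 fold changes of −0.65, −0.77, −0.57 and −0.61. Of 14 stromal genes of preadipocytes, Fmo2 was 10.1-fold lower in CD26− WB1P CAFs (183 to 16.6 CPM) and Sparcl1 5.84-fold lower in CD26+ WB1P CAFs (608 to 89.5 CPM), whereas Mgp was 4.17-fold higher in CD26+ WB1P CAFs (49.9 to 186 CPM).

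Levels of mature adipocyte markers moved with some of the results. The 12 markers, none of them among the 10 genes, summed in CD26− cells to 21.0 to 56.0 CPM in control mice with mouse 2 highest, 9.26 to 12.6 CPM in WB1P and 7.22 to 45.6 CPM in WB1P-Myc mice. In WB1P-Myc the highest were mice 10 (45.6 CPM) and 13 (33.4 CPM), the mice with the highest Cd36, Lpl and Pparg. Most of the sum was Plin4, with 33.4 CPM in mouse 10 and 18.5 CPM in mouse 13. In the same mice Lep had 1 and 0 counts, Cfd 4 and 5 and Cidec 5 and 7, whereas Plin1 had 268 and 187 and Adipoq 12 and 46 counts. In CD26− NFs, Lep had 15, 36 and 17 counts, Cfd 21, 130 and 31 and Cidec 21, 54 and 16. Of 8 adipocyte markers tested, 7 were lower in CD26− WB1P CAFs and 5 in CD26− WB1P-Myc CAFs, where 17.8% and 17.5% of all genes were. CD26+ cells had sums of 11.2 to 25.3 CPM in NFs and 7.50 to 20.7 CPM in CAFs. Pericyte and endothelial sums were lowest of the WB1P-Myc group in mice 13 (pericyte 2669 CPM, endothelial 112 CPM) and 10 (pericyte 3380 CPM, endothelial 171 CPM). In CD26+ cells pericyte sums were 167 to 201 CPM in NFs and 203 to 388 CPM in CAFs. The part of these cells in the results was not tested.

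**Figure D5:**
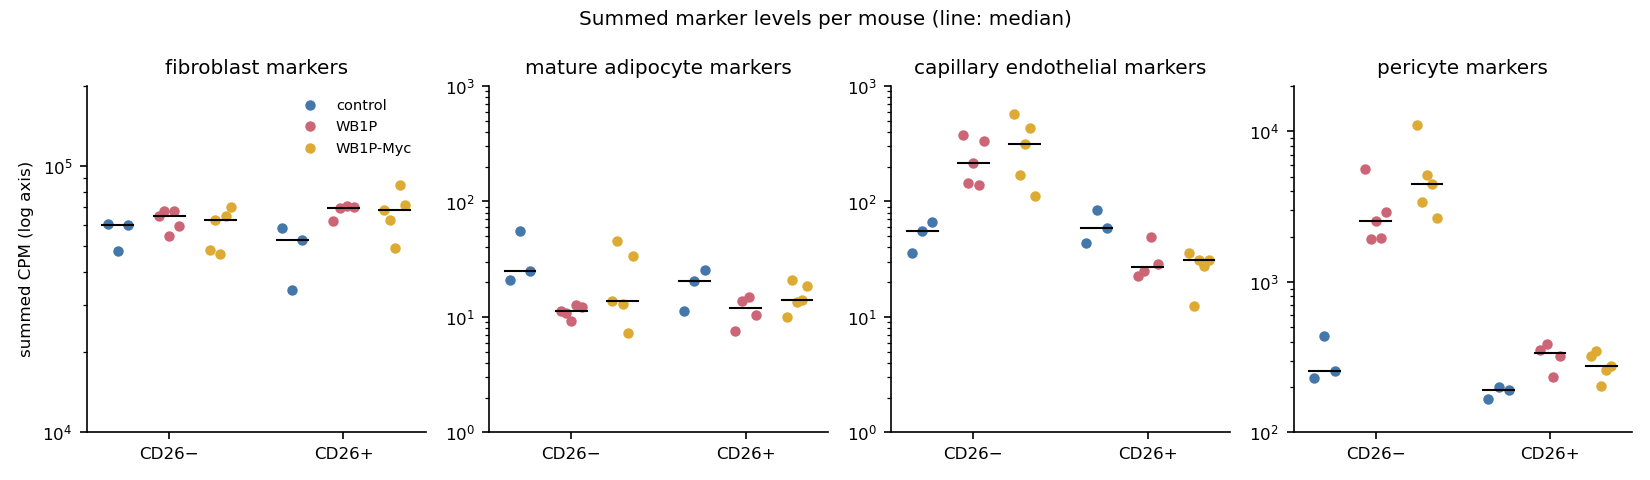
Summed CPM (log axis) of markers of fibroblasts, mature adipocytes, capillary endothelium and pericytes per mouse, by CD26 class and group; the black line is the median. Fibroblast sums of CD26+ WB1P CAFs lie above those of CD26+ NFs, and pericyte and endothelial sums of CD26− CAFs lie above those of CD26− NFs.

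The genes closest to each of the 10 in pattern were ranked by the root mean square difference of centred log2 CPM over the 25 sums, as a description. Ebf2 was nearest to Zfp423, with 0.35 against a median of 0.97 over all genes. For Pparg the nearest were Gsc at 0.66, Gm10000 at 0.71 and Lpl at 0.73, against a median of 1.53. The nearest to Lpl was Gpm6b at 0.50 (median 1.22), to Cebpa Zfp36l2 at 0.24 (median 0.66) and to Cd36 C7 at 1.06 (median 2.24). Zfp423 was nearest to Hdac7 at 0.20.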

How the data were processed

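mRNA of sorted mammary fibroblasts was sequenced by the authors from stranded TruSeq libraries (NovaSeq, paired-end, per the labels). They deposited counts of reads per gene, not normalized. HISAT2 2.2.1 and GRCm38 are named in the submitters' processing notes. The counter, its strand setting and the annotation are not given in the sources used here. Of 55140 gene identifiers found in GENCODE M21, 54820 have the coordinates of the table. The table's 1 line that names no gene holds 0 counts.

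Counts were summed per mouse and CD26 class (25 sums) and fitted over all 6 groups with edgeR 4.0.16 in R 4.3.3 (filterByExpr, TMM, glmQLFit, glmQLFTest). Calls were made at a Benjamini-Hochberg FDR of 0.05 over the genes tested. En1 comparisons used single libraries in 12 groups, each En1 difference being the mean over the 3 treatments. CPM were computed here from library totals. Sums held 5790599 to 29498005 counts (median 25193924), and 3 counts or fewer were treated as the floor, which covers counting error only. The fits were tested on simulated data. No library was a copy of another in 63 comparisons within groups.

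The labels give the mouse of each library, so the CD26 classes of a mouse are paired. Their deviations from the group means correlated with r of 0.264 to 0.733 (median 0.496, 12 pairs, across 13419 genes, which are not independent replicates). Alternatives were DESeq2 1.42.0 (size factors or Wald test), no filter, mouse as a replicate block in edgeR or by limma 3.58.1 voom, En1-positive or En1-negative libraries alone, only the groups compared, the study's added limit of 2 on the absolute log2 fold change, no mice marked 8x8, and each mouse left out. The En1 difference within each treatment was added after seeing the data.

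The genes and lists were chosen with earlier results of these data known. Besides the 10 genes, the naming rule took for each comparison the 3 called pathway genes that rose most and the 3 that fell most, if they reached a mean of 10 CPM in either group and did not overlap between mice (for CD26 comparisons, moved alike in every mouse), and for likeness the 3 genes nearest in pattern. The choice among these was made with values in view. The lists were adipogenic transcription factors, inhibitors of adipogenesis, fatty acid uptake, lipid droplet, synthesis, adipokines and preadipocyte stroma. The marker lists were fibroblast, mature adipocyte, capillary endothelial, pericyte, macrophage, epithelial and Schwann genes.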

Additional observations from a re-analysis of the deposited data

Results flagged for a closer look

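G0s2 in CD26− WB1P-Myc CAFs of mouse 12 stood apart from its group. It had 1.10 CPM, while mice 9, 10, 11 and 13 had 5.67 to 7.25 CPM, and the gap made up 0.743 of the range of the group, above Dixon's limit of 0.71 for 5 samples. Of 40 groups of 4 or 5 mice tested over the 10 genes, 1 exceeded its limit, and chance gives about 1 in 20. Mouse 12 is 1 of the 2 mice marked 8x8, and its depth was not the lowest of the group. In the same mouse Cd36 (5.39 CPM), Fabp4 (24.6 CPM) and Plin1 (1 count) were also the lowest of CD26− WB1P-Myc CAFs.

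The change of Pparg from NFs to CAFs differed between the tumor models in CD26− cells, by a log2 fold change of 1.86 ± 0.41 between WB1P-Myc and WB1P CAFs (edgeR FDR 0.0448). All 5 WB1P-Myc mice lay above all 5 WB1P mice. With the mice marked 8x8 left out, no gene of the 10 was called in this comparison.

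By an interaction term, the CD26 difference of 6 of 112 pathway genes was called as different between NFs and WB1P CAFs (2 higher, 4 lower, where 1.86% of all genes were called) and that of 3 between NFs and WB1P-Myc CAFs (2 higher, 1 lower, where 1.16% were). Col4a1, Col4a2 and Cavin1 (WB1P) and Lmf1 (WB1P-Myc) were among these, besides the following 3. Mgll, which encodes monoglyceride lipase, had a CD26 difference that changed by −3.81 ± 0.88 on the log2 scale from NFs to WB1P CAFs (edgeR FDR 0.0248). It rose 27.6-fold in CD26− WB1P CAFs and the CD26+ change was not called (edgeR FDR 0.229). Wnt5a, a Wnt ligand of the list of inhibitors, had an interaction of −2.82 ± 0.50 for WB1P (edgeR FDR 0.00327) and −1.91 ± 0.48 for WB1P-Myc (edgeR FDR 0.0493). Slc27a3, a fatty acid transport protein, had one of 1.99 ± 0.31 for WB1P (edgeR FDR 0.00159) and 1.65 ± 0.31 for WB1P-Myc (edgeR FDR 0.00637), and rose in CD26+ WB1P CAFs 4.37-fold.

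In CD26− cells, the difference between En1+ and double− libraries went one way in every control mouse (higher in 3 of 3) and the other way in every WB1P mouse with both libraries (lower in 4 of 4) for 5 of the 10 genes. The change of that difference was −1.10 for Pparg, −1.07 for Fabp4, −0.75 for Lpl, −1.31 for Cd36 and −0.33 for Ebf2 on the log2 scale, and none was called (edgeR FDR 1.0 each). Of 3 WB1P-Myc mice with both libraries, Pparg, Fabp4, Lpl and Cd36 were higher in En1+ libraries of 1 and Ebf2 of 2. The test from control to WB1P was chosen after seeing the data. The share of all genes with such opposite directions was not counted, and the 5 genes were measured in the same mice, so they are not 5 separate observations.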

How the results depend on the processing

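Of 33 calls of a gene in a comparison, 11 passed an FDR of 0.05 under every alternative fit: Lpl in all 4 comparisons of CAFs with NFs, Pparg in 3 of them (not in CD26− WB1P-Myc), Cd36 and Fabp4 in CD26+ WB1P CAFs, Cebpa in CD26− WB1P CAFs, and Fabp4 between the CD26 classes of WB1P CAFs. Over 460 alternative log2 fold changes of called genes, 0 changed sign and 118 lost the call. Of 1492 of genes not called, 87 changed sign and stayed uncalled and 24 became called. Without control mouse 2, Adipoq was 0.04 in CD26− WB1P CAFs and 0.88 in CD26− WB1P-Myc CAFs on the log2 scale, uncalled. The causes were not tested.

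Counts of the 10 genes that moved by over 1.5 times follow, with the count of the report in parentheses. With the limit of 2 on the log2 fold change, 3 (6) were lower in CD26− WB1P CAFs, 0 (3) in CD26− and 0 (4) in CD26+ WB1P-Myc CAFs, 2 (4) lower in CD26+ against CD26− WB1P-Myc CAFs, and 0 higher between the CD26 classes of NFs, WB1P and WB1P-Myc CAFs (2 each) and for WB1P-Myc against WB1P (1). With En1-positive libraries alone, 1 (3) was lower in CD26− WB1P-Myc CAFs and 1 (3) in CD26+ against CD26− WB1P CAFs, 0 (2) were higher between CD26 classes of NFs and of WB1P-Myc CAFs, and 2 (1) were higher in WB1P-Myc against WB1P. With En1-negative libraries alone, 3 (6) and 1 (3) were lower in CD26− WB1P and WB1P-Myc CAFs, 1 (2) higher in CD26+ NFs and 0 (1) in WB1P-Myc against WB1P. Without the mice marked 8x8, 1 (3) and 2 (4) were lower in CD26− and CD26+ WB1P-Myc CAFs, 2 (4) lower and 0 (2) higher between their CD26 classes and 0 (1) higher against WB1P. With only the groups compared, 1 (3) was lower in CD26− WB1P-Myc CAFs, 1 (4) lower between CD26 classes of WB1P-Myc CAFs, 0 (2) higher between those of NFs and 0 (1) higher against WB1P. With no filter, 1 (3) was lower in CD26− WB1P-Myc CAFs. With mouse as a replicate block, 2 (0) were lower in CD26+ NFs, 1 (0) for the WB1P-Myc interaction and, as a random block, 0 (1) higher in WB1P-Myc against WB1P. The block changed no other call of the 10 genes than those in the report, and none of the En1 change tested after seeing the data.

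With 1 mouse left out, 3 to 6 genes were lower in CD26− WB1P, 1 to 3 in CD26− WB1P-Myc, 5 to 6 in CD26+ WB1P and 2 to 4 in CD26+ WB1P-Myc CAFs. Between CD26 classes 0 to 2 were higher in NFs, 0 to 2 higher and 1 to 3 lower in WB1P CAFs and 0 to 1 higher and 1 to 4 lower in WB1P-Myc CAFs, and for WB1P-Myc against WB1P 0 to 1 were higher. Of the 112 pathway genes, 7 were higher and 11 lower in CD26− WB1P CAFs, 7 and 10 in CD26− WB1P-Myc, 4 and 8 in CD26+ WB1P and 3 and 8 in CD26+ WB1P-Myc CAFs with the limit of 2 on the log2 fold change. Scaling CPM by TMM moved 1 of 60 group means by over 1 SD, that of Cebpa in CD26+ WB1P CAFs, to 21.9 CPM. Depth limits Adipoq and Plin1, where 1 mouse can set the direction.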

Other observations

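Adipokines, macrophage, epithelial and Schwann markers were measured too. Of 10 adipokine and receptor genes tested, 1, 0, 2 and 0 were higher and 2, 3, 2 and 2 lower in CD26− WB1P, CD26− WB1P-Myc, CD26+ WB1P and CD26+ WB1P-Myc CAFs than in NFs, beside 17.4% to 19.1% of all genes higher and 16.1% to 17.8% lower. Lep, the gene of the satiety hormone leptin, was lower in all 4, on at most 36 counts in any mouse. In the CD26+ class the NFs had only 1, 6 and 2 counts of Lep and every CAF sum 0. Macrophage markers of CD26− cells summed to 13.9 to 29.1 CPM in control, 20.2 to 150.1 CPM in WB1P and 17.7 to 148 CPM in WB1P-Myc mice. Macrophages also express Cd36 and Lpl, and their part in the levels was not tested. Epithelial markers summed to 1.38 to 194 CPM over all sums, and the Schwann markers of CD26− cells to 9.78 to 27.7 CPM in NFs, 5.79 to 18.1 CPM in WB1P and 9.65 to 74.2 CPM in WB1P-Myc CAFs.

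Between the CD26 classes, 4 of the 112 pathway genes tested were higher and 8 lower in CD26+ NFs, where 2.67% of all genes were higher and 1.49% lower. In CD26+ WB1P CAFs 19 were higher and 27 lower (13% of all genes each way), and in CD26+ WB1P-Myc CAFs 19 and 28 (9.29% and 10.7%). With mouse as a replicate block the counts in NFs were 11 and 13. Among inhibitors of adipogenesis, Nr2f2 was lower in CD26+ CAFs, with means of 53.5 and 7.75 CPM in WB1P and 90.8 and 10.9 CPM in WB1P-Myc CAFs. Wnt10b was the reverse, with 1.14 and 30.2 CPM in WB1P and 1.45 and 34.5 CPM in WB1P-Myc CAFs. Cd34 and Ly6a, markers of stromal progenitors, were also higher in CD26+ WB1P CAFs, at 1217 against 88.1 CPM and 858 against 146 CPM. In NFs, Mgll was 8.45-fold higher in CD26+ cells (69.1 against 8.49 CPM).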
